A study of Mus musculus with 6 samples.

Results

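Type I interferon-stimulated genes were examined in mouse mammary stem cells without MLL3, a histone H3 lysine 4 methyltransferase that acts at enhancers and is encoded by Kmt2c. The set holds 39 genes known as targets of the pathway, divided by known role into sensors of foreign nucleic acid (5 genes), regulators of the interferon response (12) and effectors (22). Of these, 36 had a probe set of their own among the 22180 genes measured, and the probe set with the highest mean stood for a gene with several. Dtx3l and Oas1a share their probe sets with a neighbouring gene (Parp9 and Oas1g), no probe set was paired with Ifi44, and these 3 are not reported here. The 36 measured genes are 5 sensors, 11 regulators and 20 effectors.

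The samples were 3 Mll3-null and 3 wild-type (WT) arrays of total RNA from mammary stem cell lines made by CRISPR and cultured as organoids, which are 3-dimensional cultures of epithelial cells. No treatment besides the genotype is named, and every array is labelled a biological replicate. The labels name no age, strain or passage, nor whether replicates are separate clones or separate cultures of 1 clone. The p-values therefore measure the spread between these samples only, which may in part be technical. Values are log2 expression summaries per probe set, deposited on a common scale (array medians 4.35 to 4.40), and the small number of arrays limits the precision. All differences below are Mll3-null minus WT. Where 3 values are given for a genotype, they are its replicates 1, 2 and 3 in that order.

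Type I interferons bind the receptor made of IFNAR1 and IFNAR2, whose kinases JAK1 and TYK2 activate the transcription factor complex ISGF3. This complex contains STAT2 and IRF9 and binds the interferon-stimulated response element in the promoters of its targets. Many targets are themselves sensors or factors of the pathway, so that a weak signal is amplified, and epithelial cells hold a basal level of many of these genes without infection. The response element is a pair of GAAA boxes set apart by a pair of bases, and the promoters below are shown because they carry those letters upstream of genes described here. They are the 6 with the smallest p among the measured genes that hold them. Each run gives the 250 bases before a RefSeq transcript start (GRCm38.p6), 5′ to 3′ on the gene's strand, with every match to GAAANNGAAA or to its reverse complement TTTCNNTTTC in capitals.
Trim30a (chr7:104465194-104465443, minus strand): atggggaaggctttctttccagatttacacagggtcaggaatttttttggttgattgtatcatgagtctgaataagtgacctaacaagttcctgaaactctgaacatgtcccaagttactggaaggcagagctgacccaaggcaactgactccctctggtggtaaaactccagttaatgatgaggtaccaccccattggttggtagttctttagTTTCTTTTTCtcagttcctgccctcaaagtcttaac
Rsad2 (chr12:26456453-26456702, minus strand): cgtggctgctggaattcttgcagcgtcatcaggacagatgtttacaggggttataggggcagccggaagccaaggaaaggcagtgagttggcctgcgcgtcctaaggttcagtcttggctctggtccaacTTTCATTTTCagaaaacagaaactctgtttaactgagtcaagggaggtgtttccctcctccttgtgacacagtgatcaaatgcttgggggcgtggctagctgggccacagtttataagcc
Stat2 (chr10:128270248-128270497, plus strand): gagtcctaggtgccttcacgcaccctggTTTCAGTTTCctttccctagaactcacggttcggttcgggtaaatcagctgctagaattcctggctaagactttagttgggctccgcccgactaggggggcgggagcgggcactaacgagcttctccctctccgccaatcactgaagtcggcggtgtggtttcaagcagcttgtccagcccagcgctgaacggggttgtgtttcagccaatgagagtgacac
Ifit1 (chr19:34640639-34640888, plus strand): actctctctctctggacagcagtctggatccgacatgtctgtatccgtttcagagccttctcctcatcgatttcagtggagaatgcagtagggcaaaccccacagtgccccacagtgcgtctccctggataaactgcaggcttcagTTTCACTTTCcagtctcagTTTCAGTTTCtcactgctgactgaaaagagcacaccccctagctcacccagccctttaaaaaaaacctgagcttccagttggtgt
Isg15 (chr4:156200819-156201068, minus strand): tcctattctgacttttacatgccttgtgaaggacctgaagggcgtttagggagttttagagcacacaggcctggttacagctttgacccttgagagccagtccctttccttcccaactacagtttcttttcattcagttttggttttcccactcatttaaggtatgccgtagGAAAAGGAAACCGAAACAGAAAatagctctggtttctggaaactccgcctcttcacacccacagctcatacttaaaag
Bst2 (chr8:71537473-71537722, minus strand): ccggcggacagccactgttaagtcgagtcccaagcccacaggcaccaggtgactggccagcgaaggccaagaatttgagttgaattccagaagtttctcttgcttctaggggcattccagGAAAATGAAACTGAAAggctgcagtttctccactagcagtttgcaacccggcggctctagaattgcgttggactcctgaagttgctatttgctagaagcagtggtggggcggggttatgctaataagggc

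The matches in capitals begin 36 bases before the start in Trim30a, 120 before it in Rsad2 and 222 before it in Stat2. Ifit1 has 2 separate matches, the farther of them 104 bases before the start. Isg15 has 3 matches that run into each other, from 78 bases before the start, and Bst2 has 2 that overlap, from 130 before it. Of the 29 genes of the set with a promoter in the RefSeq table, 10 hold the letters on either strand (34.5%), against 936 of all 27025 genes in that table (3.46%). The GAS letters TTCNNNGAA, which read the same on both strands and belong to the gamma-activated sequence of interferon gamma targets, occur in 5 of the 29 genes (17.2%), against 8.13% of all genes. In Bst2 the GAS match overlaps the response element letters. These are matches of letters in a fixed window and not measured binding. Among the 26 genes with both a promoter and a value, the 9 with the response element letters had a median difference of 0.33 log2 units (all 9 with a higher mean in Mll3-null cells), and the 17 without them a median of 0.26 (15 with a higher mean).

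The identity of the cells and the arrays was looked at before the gene set. Kmt2c, the targeted gene, was at 5.84, 6.42 and 6.07 log2 units in Mll3-null cells, against 6.63, 5.58 and 5.82 in WT cells, so its mRNA level did not separate the genotypes. Whether its probes fall within the edited sequence is not known from the labels, so this level does not check them. The epithelial marker Epcam was high on all arrays, at 10.72 to 10.94 in Mll3-null cells and 10.72 to 10.93 in WT cells. Mll3-null replicate 3 stood apart by part of the basal markers. The mean level of 11 measured basal genes was 6.86 there. It was 8.37 and 8.70 in Mll3-null replicates 1 and 2 and 8.09 to 8.40 in WT arrays. Krt14 was at 6.65 in Mll3-null replicate 3 against 11.74 or more elsewhere. Of the 11 genes, 6 had their lowest value of the 6 arrays there, but Itga6 (11.22) and Oxtr (8.35) had their highest there. Itga6, Itgb1 and Oxtr, the basal markers with the smallest p, differed by 0.28, -0.18 and 1.12 between the groups. The mean level of 11 luminal markers was 8.49 to 8.96 in Mll3-null and 8.29 to 8.87 in WT arrays, with Cldn4, Esr1 and Kit differing by -1.58, -0.42 and 1.29 (log2, none past the test). Of 15 measured immune markers 8 had a mean under 4 and Cd14 alone was bright, at 9.97 to 10.82 in Mll3-null and 9.87 to 10.59 in WT arrays (named after its values were seen). The defining immune marker Ptprc was at 3.11 to 3.22 in Mll3-null and 3.05 to 3.25 in WT arrays, and the mean of the list was 4.35 to 4.43 in Mll3-null and 4.28 to 4.36 in WT arrays. Fibroblast and endothelial markers (11 measured) had list means of 4.04 to 4.23 in Mll3-null and 4.03 to 4.17 in WT arrays. In such bulk RNA, fewer cells that express a gene and less of its RNA per cell cannot be told apart.

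Most interferon-stimulated genes had a higher mean in Mll3-null cells, by a small margin, and the mean of the set on each array did not separate the genotypes. Of the 36 genes, 33 had a higher group mean in Mll3-null cells, against 51.5% of all genes. Irf1, Parp14 and Ifitm3 had a lower one. The genes were chosen with earlier results of these data known, so this count is a description. The median difference was 0.30 log2 units, against 0.01 over all genes, and it was 0.15 without Mll3-null replicate 2 and 0.50 without WT replicate 2. No gene of the set passed the test: with limma and Benjamini-Hochberg adjustment over all genes, 0 of 36 had an adjusted p under 0.05, the smallest being 0.84, and the share of all genes called was 0%. Without adjustment, 3 of the 36 had a p under 0.05, namely Irf9, Trim30a and Mx2, all with a higher mean in Mll3-null cells, against 4.93% of all genes in either direction and 2.51% on the higher side. On the lower side there was none of the set, against 2.42% of all genes. Of the 3 genes, Trim30a and Mx2 were low in level, with 6-array means of 3.64 and 4.25 log2 units. That count of 3, beside 1093 of all genes, was 12 beside 858 without Mll3-null replicate 3 and 8 beside 925 without WT replicate 2. It was 6 beside 2742 without Mll3-null replicate 1 and 1 beside 716 without Mll3-null replicate 2. It was 0 beside 878 without WT replicate 1 and 0 beside 845 without WT replicate 3. The groups did not overlap for 4 of the 36 with Mll3-null higher (11.1%, against 5.44% of all genes) and for none with Mll3-null lower (against 5.31%).

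**Figure D1:**
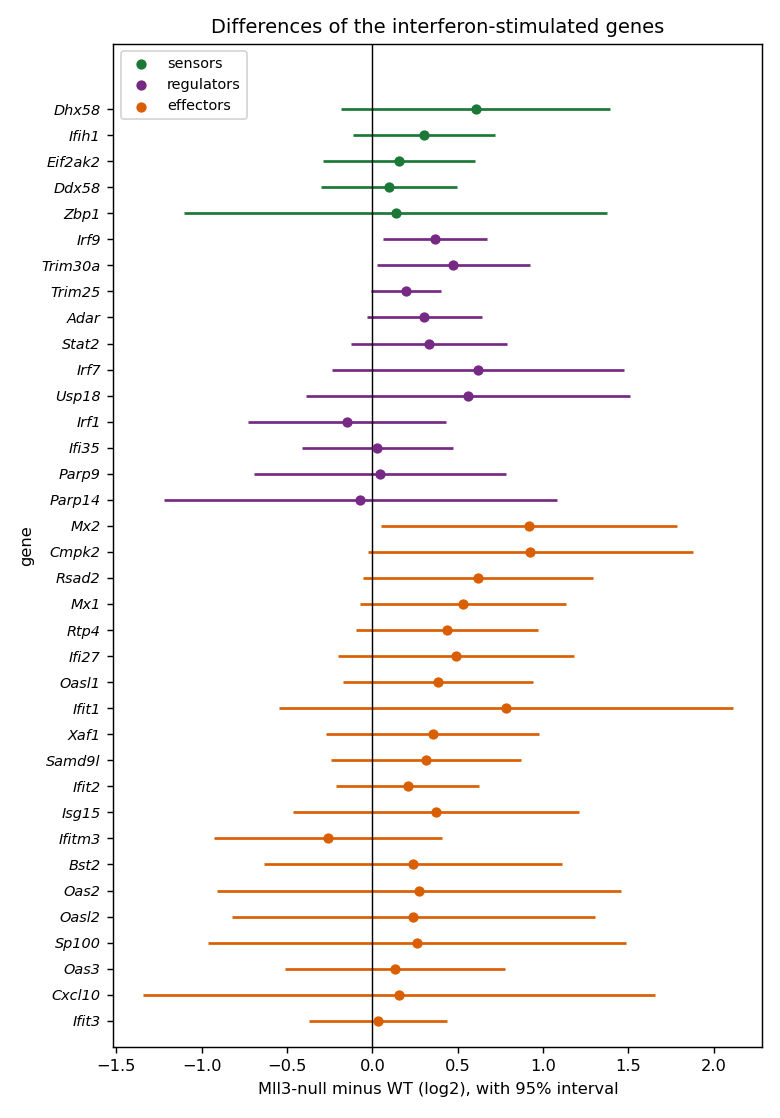
Difference between Mll3-null and WT cells (log2, horizontal axis) for each of the 36 measured interferon-stimulated genes (vertical axis), with the 95% interval of the limma fit as a bar and colour for the role. Points lie right of 0 for 33 genes, and only the intervals of Irf9, Trim30a and Mx2 leave out 0.

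The order of the 6 arrays by the mean of the 36 genes mixed the genotypes. The mean deviation of the genes from their own 6-array means was 0.21, 0.51 and -0.24 log2 units in Mll3-null cells, against -0.37, 0.21 and -0.32 in WT cells. Mll3-null replicate 2 was highest, WT replicate 2 and Mll3-null replicate 1 were level behind it, and Mll3-null replicate 3 lay low, next to WT replicates 3 and 1. The group means were 0.16 ± 0.38 in Mll3-null and -0.16 ± 0.32 in WT arrays (SD, n = 3 each), a difference of 0.32 that is no larger than the SD within either group in these 6 arrays. It was 0.14 without Mll3-null replicate 2, 0.21 without WT replicate 1, 0.50 without WT replicate 2 and 0.52 without Mll3-null replicate 3.

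Single genes largely showed the same order. Mll3-null replicate 2 had the highest value of the 6 arrays for 20 of the 36 genes and WT replicate 2 for 8, while the lowest value was in WT replicate 1 for 15, Mll3-null replicate 3 for 11 and WT replicate 3 for 7. Within WT, replicate 2 was above replicate 1 for 31 genes and above replicate 3 for 33, against 50.2% and 51.5% of all genes. Within Mll3-null, replicate 2 was above replicate 3 for 34 of 36, against 48.6% of all genes. Between genotypes, Mll3-null replicate 2 was above WT replicate 3 for 36 of 36 (52.8% of all genes) and Mll3-null replicate 3 above it for 23 of 36 (53.9%). The range over the 3 arrays had a median of 0.82 log2 units for the set in Mll3-null cells and 0.62 in WT cells, against 0.27 and 0.26 over all genes. For 30 of the 36 genes the ranges within both groups were wider than the difference between them, as for 70.5% of all genes. The exceptions were Irf9, Trim25, Mx1, Mx2, Rsad2 and Cmpk2. A range over 3 arrays and a difference of means are unlike measures, so this count does not rank them.

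**Figure D2:**
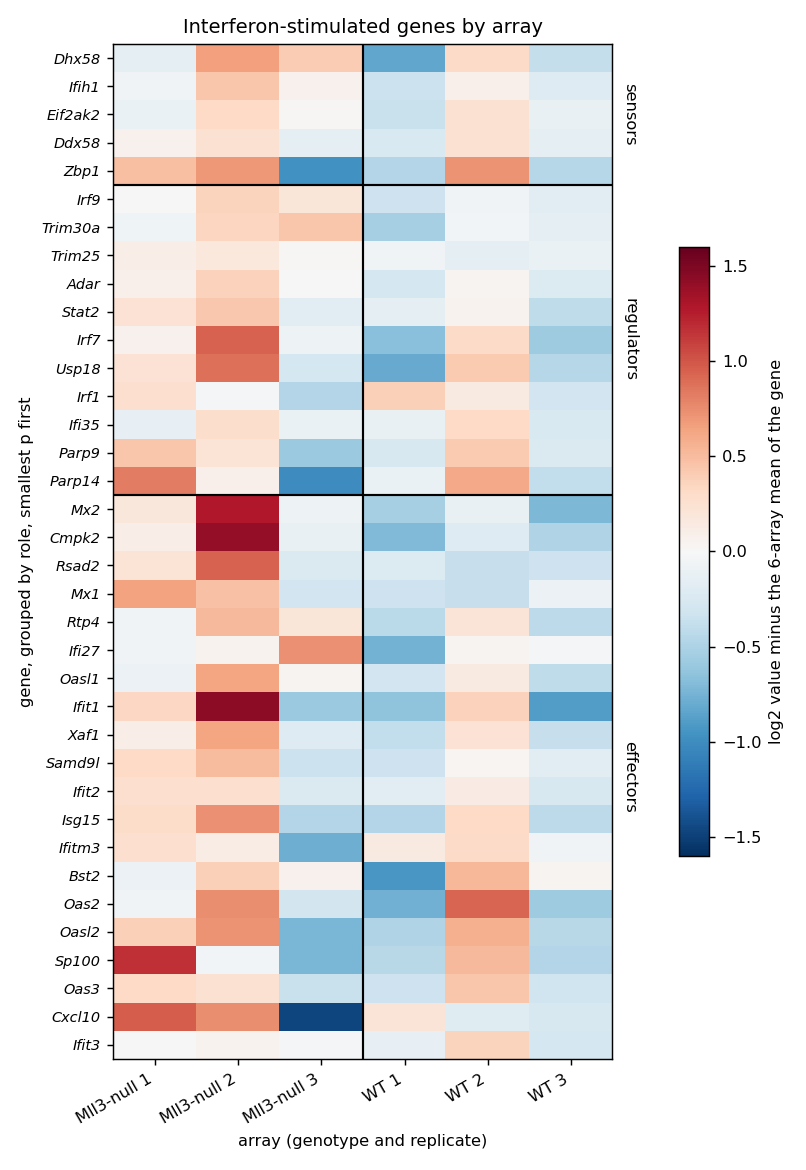
Heat map of the 36 genes (rows, grouped by role and ordered by p within a role) on the 3 Mll3-null arrays (left) and the 3 WT arrays (right), coloured by the log2 value minus the 6-array mean of the gene. Red fills the column of Mll3-null replicate 2, where 20 genes have their highest value, and much of WT replicate 2, while WT replicates 1 and 3 are blue and Mll3-null replicate 3 is mixed.

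**Figure D3:**
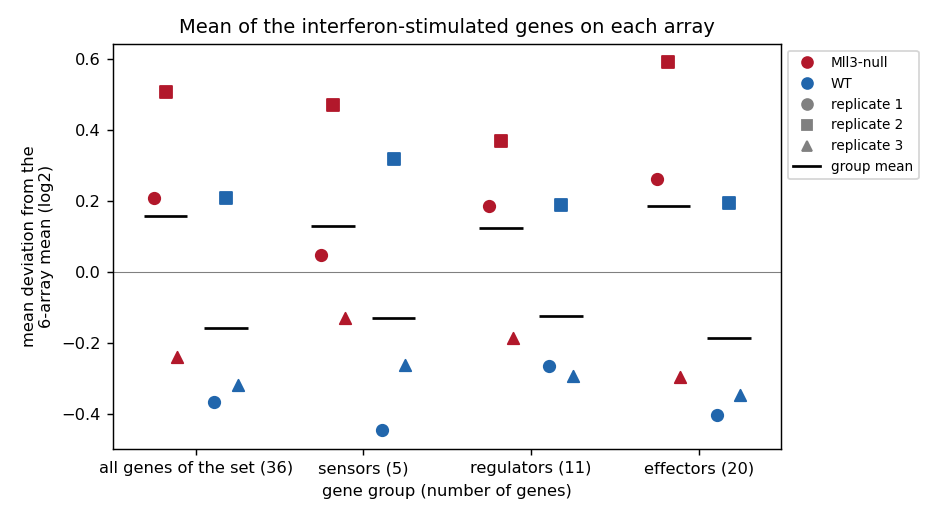
Mean deviation from the 6-array mean (log2, vertical axis) on each array for all 36 genes and for the 5 sensors, 11 regulators and 20 effectors, with Mll3-null points in red, WT points in blue, a symbol per replicate and a bar at each group mean. In each of the 4 groups of genes Mll3-null replicate 2 is highest and Mll3-null replicate 3 lies above WT replicates 1 and 3.

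The sensors detect viral or misplaced nucleic acid. All 5 had a higher mean in Mll3-null cells, with differences from 0.10 to 0.61 and a median of 0.16, and none passed the test. That median was 0.04 without Mll3-null replicate 2, 0.02 without WT replicate 1, 0.25 without Mll3-null replicate 1, 0.35 without Mll3-null replicate 3 and 0.42 without WT replicate 2. Dhx58, which encodes LGP2, a helper of the RNA sensor MDA5, was at 6.91, 7.72 and 7.46 log2 units in Mll3-null cells, against 6.23, 7.37 and 6.68 in WT cells. Its groups overlapped through Mll3-null replicate 1 and WT replicate 2, and the difference was 0.61 ± 0.33 (SE, limma adjusted p = 0.84). It was 0.34 without WT replicate 1 and 0.91 without WT replicate 2. Zbp1, a sensor of Z-form nucleic acid that can trigger necroptosis, was at 8.77, 8.98 and 7.32 in Mll3-null cells, against 7.83, 9.00 and 7.83 in WT cells. Mll3-null replicate 3 was its lowest array and WT replicate 2 its highest, and the difference of 0.14 ± 0.52 (SE) was -0.17 without Mll3-null replicate 2 but 0.66 without replicate 3 of that genotype. The other sensors differed by 0.30 ± 0.17 for Ifih1, which encodes MDA5, by 0.16 ± 0.18 for Eif2ak2, the kinase PKR that halts translation, and by 0.10 ± 0.17 for Ddx58, which encodes RIG-I (log2, SE).

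The regulators include the factors of the pathway and its feedback inhibitors. Of 11 measured, 9 had a higher mean in Mll3-null cells, with a median of 0.30 (0.19 without Mll3-null replicate 2), and none passed the test. Irf9, the DNA-binding subunit of ISGF3, was at 8.88, 9.24 and 9.08 in Mll3-null cells, against 8.56, 8.83 and 8.71 in WT cells. Every Mll3-null array was above every WT array. The difference was 0.37 ± 0.13 (SE, 95% interval 0.06 to 0.67, limma adjusted p = 0.84). Its partner Stat2 differed by 0.33 ± 0.19. Stat2 is on chromosome 10, whose 443 expressed genes lay at a median of 0.22 log2 units above their 6-array median in WT replicate 1. The part of that shift in the level of Stat2 was not tested. Chromosomes 1 and 10 alone were looked at for such shifts.

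Irf7, the factor that amplifies interferon production, was at 8.17, 9.05 and 8.03 in Mll3-null cells, against 7.44, 8.42 and 7.54 in WT cells. Usp18, a protease that removes ISG15 and restrains the receptor, was at 8.99, 9.64 and 8.48 in Mll3-null cells, against 7.96, 9.17 and 8.30 in WT cells. For both genes the second replicate was the highest of its genotype and the groups overlapped, and the differences were 0.62 ± 0.36 and 0.56 ± 0.39 (SE, limma adjusted p = 0.84 for each). Without Mll3-null replicate 2 they were 0.30 and 0.26, and without WT replicate 2 they were 0.93 and 0.91.

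Trim25, a ubiquitin ligase that activates RIG-I, was at 8.14, 8.21 and 8.05 in Mll3-null cells, against 7.98, 7.90 and 7.93 in WT cells. Every Mll3-null array was above every WT array, and the difference of 0.20 ± 0.085 (SE) stayed between 0.16 and 0.24 with any 1 array left out. Adar, the RNA-editing enzyme that keeps self RNA from MDA5, was at 7.79, 8.09 and 7.72 in Mll3-null cells, against 7.43, 7.76 and 7.50 in WT cells. Mll3-null replicate 3 lay below WT replicate 2 there, and the difference was 0.30 ± 0.14 (SE). Trim30a, a ubiquitin ligase that dampens inflammatory signalling, was dim, at 3.57, 3.98 and 4.09 in Mll3-null cells, against 3.11, 3.60 and 3.50 in WT cells, a difference of 0.48 ± 0.19 (SE). Its groups overlapped, since Mll3-null replicate 1 lay below WT replicate 2.

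Parp14, a mono-ADP-ribosyltransferase, was at 9.18, 8.44 and 7.36 in Mll3-null cells, against 8.26, 8.97 and 7.96 in WT cells. The Mll3-null arrays held both its highest and its lowest value, with a difference of -0.07 ± 0.48 (SE) that was -0.49 without Mll3-null replicate 1 but 0.41 without replicate 3 of that genotype. Irf1, a factor that interferon gamma also induces, differed by -0.15 ± 0.24, Parp9 by 0.05 ± 0.31 and Ifi35 by 0.03 ± 0.18 (log2, SE). Ifi35 had a second probe set, not used here, whose difference was 0.12.

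**Figure D4:**
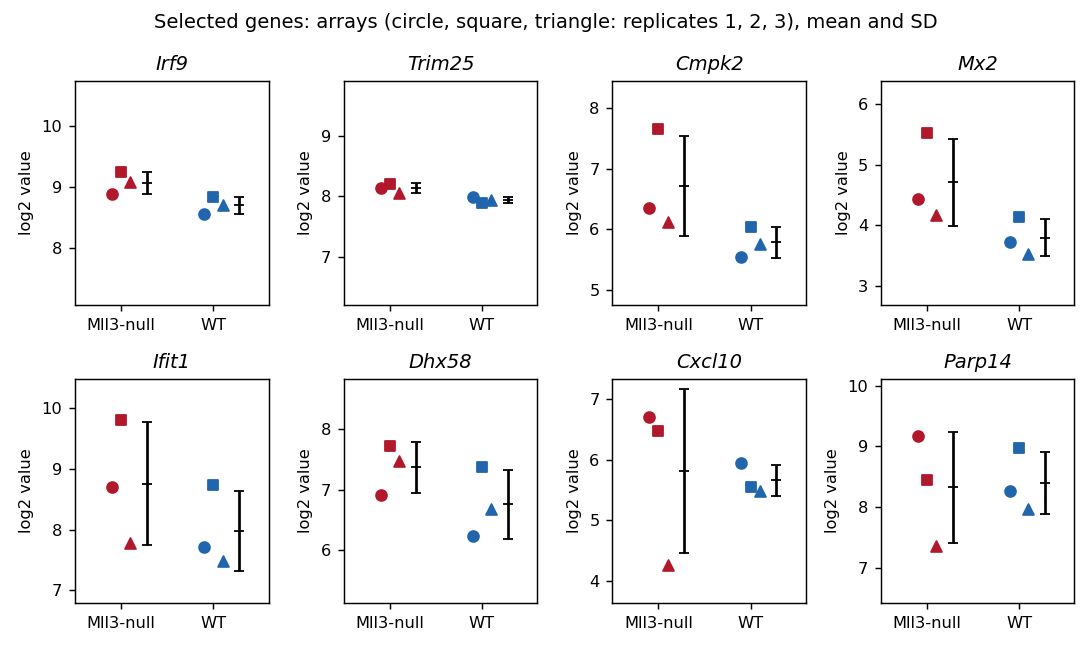
Log2 values of Irf9, Trim25, Cmpk2, Mx2, Ifit1, Dhx58, Cxcl10 and Parp14 (1 panel each, vertical axes of equal length) on the Mll3-null arrays (red, left) and the WT arrays (blue, right), with mean and SD (n = 3 each) beside the points. The groups do not overlap for Irf9, Trim25, Cmpk2 and Mx2, whereas for Ifit1, Dhx58, Cxcl10 and Parp14 they do, and Mll3-null replicate 3 (triangle) is the lowest point of Cxcl10, at 4.26, and of Parp14, at 7.36.

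The effectors carry out the antiviral state. Of 20 measured, 19 had a higher mean in Mll3-null cells, with a median of 0.33, and none passed the test. The median was 0.13 without Mll3-null replicate 2, 0.56 without Mll3-null replicate 3 and 0.58 without WT replicate 2. Cmpk2, a mitochondrial nucleotide kinase, was at 6.35, 7.65 and 6.12 in Mll3-null cells, against 5.54, 6.04 and 5.76 in WT cells. Every Mll3-null array was above every WT array, and the difference of 0.93 ± 0.40 (SE, 1.90-fold) was 0.46 without Mll3-null replicate 2. Mx2, an antiviral GTPase, was at 4.44, 5.53 and 4.17 in Mll3-null cells, against 3.72, 4.13 and 3.53 in WT cells. Each WT value of Mx2 lay under the median of its array (4.37, 4.39 and 4.35). Its groups did not overlap, with Mll3-null replicate 3 just above WT replicate 2, and the difference of 0.92 ± 0.36 (SE, 1.89-fold) was 0.51 without Mll3-null replicate 2. Mx1, its paralogue, was dim, at 4.20, 4.02 and 3.24 in Mll3-null cells, against 3.22, 3.18 and 3.46 in WT cells, so that Mll3-null replicate 3 lay with WT (difference 0.53 ± 0.25, SE).

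Rsad2, which encodes viperin and neighbours Cmpk2 on chromosome 12, was at 5.76, 6.49 and 5.31 in Mll3-null cells, against 5.32, 5.17 and 5.21 in WT cells. The WT arrays were close together and Mll3-null replicate 3 was among them, with a difference of 0.62 ± 0.28 (SE) that was 0.30 without Mll3-null replicate 2. Rtp4, a chaperone of cell-surface receptors, was at 9.82, 10.39 and 10.07 in Mll3-null cells, against 9.44, 10.08 and 9.45 in WT cells. WT replicate 2 alone lay inside the Mll3-null range, and the difference was 0.44 ± 0.22 (SE). Ifit1, which binds viral RNA that lacks the host cap, was at 8.70, 9.80 and 7.78 in Mll3-null cells, against 7.72, 8.73 and 7.47 in WT cells. The groups overlapped, with Mll3-null replicate 3 near the lower WT arrays, and the difference of 0.78 ± 0.55 (SE) was 0.26 without Mll3-null replicate 2 but 1.27 without replicate 3 of that genotype. On chromosome 19 the neighbours of Ifit1 differed less, by 0.21 ± 0.17 for Ifit2, which was dim, and by 0.03 ± 0.17 for Ifit3.

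Oas2, which makes the 2′-5′ oligoadenylates that activate RNase L, was at 5.51, 6.31 and 5.27 in Mll3-null cells, against 4.79, 6.49 and 4.99 in WT cells. WT replicate 2 was the highest array and WT replicate 1 the lowest, and the difference was 0.27 ± 0.49 (SE). Cxcl10, a chemokine that draws T cells, was at 6.71, 6.48 and 4.26 in Mll3-null cells, against 5.95, 5.55 and 5.48 in WT cells. Mll3-null replicates 1 and 2 were above all WT arrays and replicate 3 was below them all, the widest spread in the set, and the difference of 0.16 ± 0.63 (SE) was -0.29 without Mll3-null replicate 1 but 0.93 without replicate 3 of that genotype. Sp100, a protein of nuclear bodies, was at 5.88, 4.66 and 3.98 in Mll3-null cells, against 4.26, 5.23 and 4.24 in WT cells, a difference of 0.26 ± 0.51 (SE). Sp100 is read by 4 probe sets, and those not used here differed by 0.39, 0.06 and -0.08. It is on chromosome 1, whose 510 expressed genes lay at a median of 0.30 log2 units above their 6-array median in Mll3-null replicate 3, the array where Sp100 was lowest, and the part of that shift in its level was not tested.

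The other 9 effectors had differences between -0.26 and 0.49, with overlapping groups in each. Ifitm3, a membrane protein that blocks viral entry, was the effector with a lower mean in Mll3-null cells (-0.26 ± 0.28, and 0.06 without Mll3-null replicate 3). Ifi27, a mitochondrial protein, differed by 0.49 ± 0.29, Oasl1 by 0.38 ± 0.23 and the pro-apoptotic Xaf1 by 0.36 ± 0.26. The ubiquitin-like modifier Isg15 differed by 0.37 ± 0.35, and by 0.10 without Mll3-null replicate 2 but 0.70 without replicate 3 of that genotype. Samd9l, Oasl2, the tether Bst2 and Oas3 ran from 0.13 to 0.31.

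Each array was also set against all 3 of the other genotype. Mll3-null replicate 3 was above all WT arrays for 7 of 36 genes, namely Cmpk2, Dhx58, Ifi27, Irf9, Mx2, Trim25 and Trim30a, and below all WT arrays for 11, namely Cxcl10, Ifitm3, Irf1, Isg15, Oas3, Oasl2, Parp14, Parp9, Samd9l, Sp100 and Zbp1. Over all genes the shares above and below were 31.6% and 28.6%. The number below was near that background and the number above was under it. Of 48 other measured interferon-stimulated genes, the same array was above all WT arrays for 8 and below them for 21. Mll3-null replicate 2 was above all WT arrays for 24 of 36 (27.5% of all genes) and replicate 1 for 14 (22.5%), and neither was below them for any gene of the set (25.5% and 23.6% of all genes). Mll3-null replicate 3 is also the array with the low mean of the basal list (6.86), and the part of this in these counts was not tested.

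Genes upstream of the response were read from lists of the wider pathway. Of 19 measured interferon genes 12 had a mean under 4, 9 had a higher mean in Mll3-null cells, the median difference was -0.02 and 0 passed the test. The brightest of them, named after their values were seen, were Ifnl2, with means of 6.84 in Mll3-null and 6.90 in WT cells, and Ifna1, with means of 6.53 in Mll3-null and 6.57 in WT cells. Ifnb1, the interferon that most cell types make first, was at 3.27, 3.35 and 3.28 in Mll3-null cells, against 3.23, 3.24 and 3.07 in WT cells. Ifne, the interferon of epithelia in the reproductive tract, differed by 0.31 ± 0.11 and Ifnk, of keratinocytes, by 0.21 ± 0.16 (log2, SE), both dim. Receptor genes had a lower mean in 5 of 6 cases (median -0.14), none past the test. Ifnar1 differed by -0.09 ± 0.10 and Ifnar2 by -0.05 ± 0.08, while the interferon gamma receptor genes Ifngr2 and Ifngr1 differed by -0.30 ± 0.16 and -0.20 ± 0.13 and the interferon lambda receptor gene Ifnlr1 by -0.40 ± 0.30.

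Of 9 kinases, STAT genes and inhibitors of the signalling step, 4 had a higher mean (median -0.05) and none passed, with Stat3 at 0.12 ± 0.09, the phosphatase gene Ptpn11 at -0.16 ± 0.14 and Jak1 at -0.08 ± 0.08 (log2 difference, SE). Among 17 genes of nucleic acid sensing and interferon induction 14 had a higher mean (median 0.11) and none passed. The adaptor gene Ticam1 was at 5.79, 5.88 and 5.78 in Mll3-null cells, against 5.28, 5.27 and 5.73 in WT cells, without overlap. The kinase gene Ikbke was at 8.55, 7.69 and 7.21 in Mll3-null cells, against 8.42, 9.08 and 8.70 in WT cells, and its difference of -0.92 ± 0.35 is opposite in sign to the median of its list. The adaptor gene Myd88 differed by -0.22 ± 0.13.

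A further 48 measured interferon-stimulated genes outside the set lay on both sides of 0. The mean was higher in Mll3-null cells for 32 of them, the median difference was 0.06, and none passed the test. Epsti1, at 4.36, 4.06 and 4.04 in Mll3-null cells, against 4.93, 5.57 and 4.80 in WT cells, had the smallest p of all these lists, and every Mll3-null array was below every WT array (difference -0.95 ± 0.22, SE, limma adjusted p = 0.84). Trim14, an adaptor of RIG-I signalling, was at 6.12, 6.69 and 7.79 in Mll3-null cells, against 5.89, 5.38 and 5.99 in WT cells, without overlap and highest in Mll3-null replicate 3 (difference 1.11 ± 0.42, SE). Apobec3, a cytidine deaminase against retroviruses, differed by 0.45 ± 0.18. Over all 99 other pathway genes 60 had a higher mean (60.6%, against 51.5% of all genes) and 0 passed the test. At an unadjusted limma p under 0.05 there were 7, against 4.93% of all genes. Of these 7, 5 had a higher and 2 a lower mean in Mll3-null cells.

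**Figure D5:**
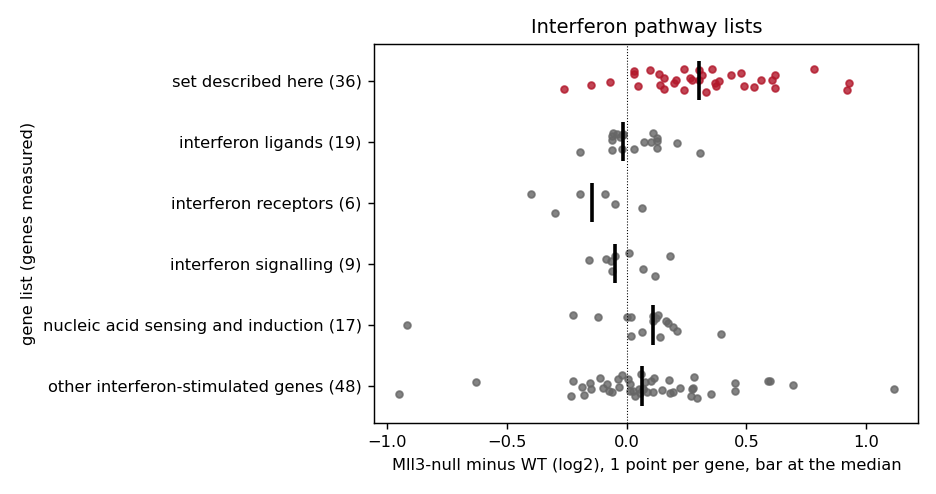
Differences between Mll3-null and WT cells (log2, horizontal axis, 1 point per gene, black bar at the median) for the 36 genes described here (red, top) and for 5 lists of the wider interferon pathway (grey; vertical axis, with the number measured). The red points have a median of 0.30, and the medians of the other lists lie between -0.14 and 0.11. Genes and lists were chosen with earlier results of these data known, so the medians are descriptions.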

How the data were processed

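For 6 single-channel Affymetrix arrays the authors deposited log2 expression values of each probe set, made with Affymetrix Expression Console per the submitters' processing notes. The software version, summarization, normalization and build were not given in the sources used here, and the log2 scale was read from the values (1.72 to 13.56). Near-equal quartiles show a common scale, which hides any shift in total RNA. The table held 0 columns of other samples.

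Of 41345 probe sets, 23521 carry exactly 1 symbol in the platform annotation. The probe set with the highest mean stood for each of 1082 genes with several, which gave 22180 genes. No filter on dim genes was applied, and "dim" means a 6-array mean under 4. The genotypes were tested against each other in limma 3.58.1 under R 4.3.3 (two-sided moderated test from lmFit and eBayes, no covariates), with Benjamini-Hochberg adjustment over all genes and a threshold of 0.05. Errors are moderated standard errors. The script was tested on simulated data. The genes and lists were chosen with earlier results of these data known, so their counts are descriptions. Per-array values are given for the 10 genes with the smallest p and the 10 with the widest range. Of each other list up to 3 genes by p are named, with Ifnar1, Ifnar2, Ifnb1 and Kmt2c, by their differences or per-array values. Ptprc, Epcam and Krt14 were named to check cell identity, and single genes of the set for their role. Expressed genes, for the medians of chromosomes 1 and 10 (no others were looked at), have a mean over 6. Promoters are from RefSeq. Alternatives covered the spread model, array weights, a filter on dim genes, normalization, probe set choice, the replicate block, a stricter threshold and arrays left out.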

Additional observations from a re-analysis of the deposited data

How the results depend on the processing

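Under the spread models, array weights, filter on dim genes, normalizations, probe set choices, replicate block, stricter threshold and arrays left out, limma called 0 genes of the set and 0 of all genes. The number of the 36 genes with a higher mean in Mll3-null cells ran from 27 (without Mll3-null replicate 2) to 36 (without Mll3-null replicate 3) when an array was left out, and the filter on dim genes left 33 genes, 30 of them higher. The median difference of the set ran from 0.15 to 0.50 over arrays left out and was 0.52 with array weights, where the median of the sensors was 0.49 and 19 genes of the set had an unadjusted p under 0.05 (2504 of all genes, against 1093 without weights). The medians of the set and of its 3 roles kept their sign in all of these.

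The replicate numbers are not tied to a shared animal or day by any label, so the numbers were not taken as pairs. Deviations of same-numbered arrays from their group means correlated at 0.04, 0.08 and 0.31, and those of differently numbered arrays at -0.29 to 0.22. These few values do not decide whether the numbers mark pairs. With the replicate block 0 genes were called, and 15 genes of the set had an unadjusted p under 0.05, beside 1290 of all genes. Without the block these counts were 3 and 1093. In this balanced design the block cannot move a difference between group means.

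With 1 array left out the difference of 33 of the 36 genes changed by over 1.5 times at least once, and that of Irf9, Trim25 and Trim30a did not. The arrays whose absence moved the most genes so far were Mll3-null replicate 2 (27 genes) and Mll3-null replicate 3 (21). Of 36 genes, 23 kept their sign under every alternative run and 13 did not. Leaving out 1 array gave -0.17 to 0.66 for Zbp1, -0.34 to 0.0473 for Irf1, -0.16 to 0.35 for Parp9, -0.49 to 0.41 for Parp14, -0.11 to 0.20 for Ifi35 and -0.10 to 0.22 for Ifit3. It gave -0.0457 to 0.81 for Oas2, -0.0569 to 0.67 for Oasl2, -0.17 to 0.57 for Bst2, -0.29 to 0.93 for Cxcl10, -0.26 to 0.69 for Sp100 and -0.46 to 0.0642 for Ifitm3. With array weights Parp14 was at 0.0738. With Mll3-null replicate 3 and WT replicate 1 both left out, Irf1 was at 0.20, Parp14 at 0.34, Ifit3 at -0.0077, Bst2 at -0.15, Ifi27 at -0.0083 and Ifitm3 at 0.0695. The cause was not tested. Dim genes (Mx1, Ifit2 and Trim30a in the set) carry little signal over the array's floor.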
